A study of Mus musculus with 6 samples.

Results

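The cytosolic ribosomal proteins, which with ribosomal RNA form the small and large subunits, have mRNAs among the most abundant in any growing cell. They are described here through the 87 genes, of 30733 with a value, whose symbols follow the naming of cytosolic ribosomal proteins: Rps or Rpl with a number, the stalk genes Rplp0, Rplp1 and Rplp2, and Rpsa. They were chosen by name and not by any measured value, though with earlier results of these data known. They comprise 31 core proteins of the small subunit, 46 core proteins of the large subunit, and 10 paralogues or related copies. In GENCODE, Rps27l, Rpl22l1, Rpl7l1, Rpl39l and Rpl3l are protein coding, Rps4l is a transcribed processed pseudogene, and Rpl6l, Rpl32l, Rps3a2 and Rps3a3 are processed pseudogenes. The pattern leaves out ribosomal proteins or copies under other names, such as Fau, Rack1, Rpl36al and Rps27rt, which are given with the comparison lists.

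The 6 libraries were made from wild-type (WT) mice that had all received 5 Gy of total body irradiation. Bone marrow cells labelled haematopoietic stem cells (HSC) were sorted on surface MHC class II, the antigen-presenting molecule, into an MHCII-hi and an MHCII-lo group of 3 libraries each. There was no unirradiated group, and neither the time after irradiation, the gates, the age of the mice, nor whether replicates came from separate mice is stated in the labels. If replicates share a source, p-values measure only the spread between these samples. The values are FPKM, a fragment count corrected for transcript length and library depth. Estimated depth was between 2.08e+07 and 3.12e+07 fragments, and the sort was reflected in Cd74, the class II chaperone, at 12.8 ± 0.405 FPKM in MHCII-lo and 359 ± 6.82 in MHCII-hi (SD, n = 3).

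Transcripts of other bone marrow cells were present in both groups and differed between them. Of summed FPKM, 0.497% ± 0.00446 came from immunoglobulin genes in MHCII-lo and 23.5% ± 0.144 in MHCII-hi (SD, n = 3). The plasma and B cell list summed to between 472 and 492 FPKM in MHCII-lo and between 22010 and 22612 in MHCII-hi, with 11 of 11 tested genes higher. The neutrophil list ran the other way, from 43373 to 43988 FPKM in MHCII-lo against 19015 to 19312 in MHCII-hi, with 13 of 13 lower. The T and NK cell list summed to 175 to 185 against 241 to 253 FPKM, with 11 of 12 tested genes higher. The erythroid list summed to 524 to 541 against 392.1 to 401.5 FPKM, with 6 of 11 lower and 3 higher. The stem cell list summed to between 54.2 and 54.5 FPKM in MHCII-lo and between 115 and 119 in MHCII-hi. Of its 14 genes, 4 lay below 1 FPKM on average, Procr, Slamf1, Mecom and Fgd5. Of its 10 tested genes, 8 were higher and 1 lower. Over all tested genes 33.1% were lower and 25.5% higher, by the fit given below. No gene of these lists was at 0 in every library. The part of these transcripts in the results below was not tested, and in such bulk samples fewer cells of a type and less RNA per cell cannot be told apart.

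Each ribosome holds a single copy of nearly all its proteins, with the stalk proteins Rplp1 and Rplp2 as the known exception. Cells make these proteins in step largely at translation, because the mRNAs begin with a C followed by a run of pyrimidines, the 5′ terminal oligopyrimidine (TOP) motif, that links them to growth signalling. In blood formation, loss of single ribosomal proteins such as Rps19 or Rps14 is known to cause anaemia, and free Rpl5 and Rpl11 bind Mdm2, the inhibitor of p53.

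RefSeq start-site windows on GRCm38.p6 were found for 63 of the 87 members. The windows below run from 10 bases before the annotated start through the first 20 transcribed bases, on the gene's strand, with the longest run of C and T capitalised. They show a core gene beside its paralogue in 2 cases, then genes that were lower in MHCII-hi under every scaling tried (Rpl35, Rpl39), then genes that were higher as deposited (Rps24, Rpl28).
Rps27, chr3:90213629-90213658, minus strand: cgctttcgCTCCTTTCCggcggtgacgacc
Rps27l, chr9:66946076-66946105, plus strand: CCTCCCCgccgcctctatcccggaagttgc
Rpl22, chr4:152325716-152325745, plus strand: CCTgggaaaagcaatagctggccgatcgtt
Rpl22l1, chr3:28805498-28805527, plus strand: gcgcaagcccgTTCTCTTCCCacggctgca
Rpl35, chr2:39005112-39005141, minus strand: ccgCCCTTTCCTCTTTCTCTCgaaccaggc
Rpl39, chrX:37085203-37085232, minus strand: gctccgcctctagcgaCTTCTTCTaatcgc
Rps24, chr14:24490668-24490697, plus strand: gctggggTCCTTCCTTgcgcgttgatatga
Rpl28, chr7:4792955-4792984, plus strand: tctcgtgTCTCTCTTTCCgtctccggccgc
A pyrimidine start was scored where a C opens an unbroken run of at least 5 C or T bases within 10 bases either side of the start. The search read only the gene's own strand, and overlapping runs were counted once per gene. By this rule 31 of 57 core genes with a window had one (54.4%), 13 of 23 for the small subunit (56.5%) and 18 of 34 for the large (52.9%). The share over all 14809 genes with a window was 31.3%, and over mitochondrial ribosomal protein genes 42.0% (29 of 69). On the deposited scale, the 31 core genes with the run and the 26 without it had median log2 changes of -0.20 and -0.15. By the fit given below, 24 and 20 of them were lower in MHCII-hi. Over all core genes 75.3% were lower, and over all tested genes 33.1%. Both kinds of start were thus found among genes that were lower.

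On the deposited scale most ribosomal protein transcripts were slightly less abundant in MHCII-hi. Of 85 members above the mean of 1 FPKM required for testing, 62 fell (72.9%), 4 rose and 19 did not pass. Of all 12110 tested genes 33.1% were lower and 25.5% higher, or 58.6% called in either direction. Calls come from a two-sided limma fit on log2(FPKM + 1) at 0.05 after Benjamini-Hochberg adjustment across the table. Changes ran from -0.82 to 0.23 with a median of -0.19, against a median of -0.04 over all tested genes, where a log2 change is MHCII-hi minus MHCII-lo. Groups did not overlap for 68 lower and 5 higher members, beside 36.8% and 29.0% of all tested genes. The replicates lay close together, with a median coefficient of variation over members of 1.97% in MHCII-lo and 1.98% in MHCII-hi.

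How many members fell depended on what the libraries were scaled to. With FPKM divided by each library's summed FPKM outside the immunoglobulin genes, called here the immunoglobulin-free scale, 24 members were lower and 25 higher, beside 17.6% and 40.5% of all tested genes. The median of all tested genes moved to 0.11 on that scale and the median member to -0.01. The neutrophil list stayed in that denominator, at 43373 to 43988 FPKM in MHCII-lo against 19015 to 19312 in MHCII-hi. The scale therefore also carries this and other differences between the groups. In MHCII-hi, immunoglobulin genes were 23.5% of summed FPKM but 5.54% of FPKM times exon length. Weighting each FPKM by exon length first, which approximates fragments and gives the short immunoglobulin segments less weight, put 42 members lower and 7 higher, beside 24.8% and 32.3% of all genes. On this length-weighted immunoglobulin-free scale, chosen after the values were seen, the median member stood at -0.10 and the median gene at 0.04. Scaled to the core ribosomal proteins themselves, 27 members were lower and 19 higher, beside 18.5% and 39.3%. Scaling to genes other than ribosomal proteins, immunoglobulin genes included, put 79 members lower (54.7% of all genes) and none higher (14.2%). The median of all tested genes stood at -0.23 on that scale. Quantile normalization put 80 members lower (39.4%) and none higher (20.9%). At an unadjusted limma p under 0.05 the counts of higher members were also 0 and 0. Of the 58 core genes that were lower as deposited, 20 were lower on the immunoglobulin-free scale, 27 did not pass and 11 were higher. Under all 7 other scalings or sums, scaling to the core left aside, 20 core genes and the 4 copies Rps27l, Rpl7l1, Rpl22l1 and Rps4l remained lower. They were lower when scaled to the core as well. The share of all tested genes that stayed lower throughout was not counted.

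**Figure D1:**
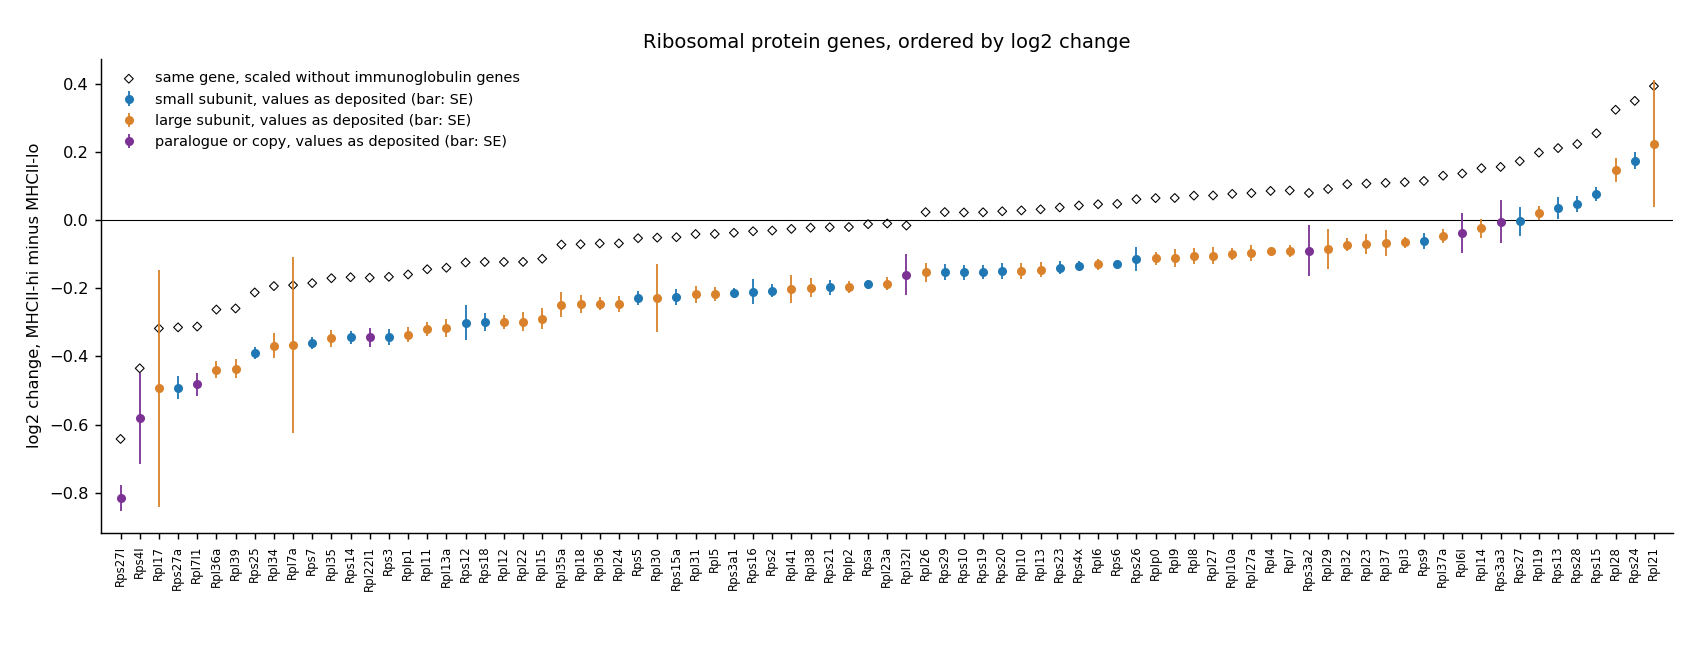
The log2 change of 81 of the 85 tested members (MHCII-hi minus MHCII-lo, on log2(FPKM + 1), bars: standard error) in ascending order, coloured by class, with open diamonds for the same gene on the immunoglobulin-free scale. Filled points lie mostly below 0 and the diamonds around it (medians over all 85 tested members -0.19 and -0.01), with Rps27l lowest of all on both.

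Among the 31 small-subunit genes, 23 fell, 3 rose and 5 did not pass, beside 33.1% lower and 25.5% higher over all tested genes. The median change of the 31 was -0.15, against -0.04 over all tested genes. On the immunoglobulin-free scale 7 were lower and 10 higher, beside 17.6% and 40.5% of all tested genes. Rps27a, whose product is ubiquitin fused to a small-subunit protein, changed most, from 497, 485 and 467 FPKM in MHCII-lo to 356, 330 and 343 in MHCII-hi. Every MHCII-hi library lay below every MHCII-lo library, a fall of 28.9% (log2 change -0.49 ± 0.03 SE, limma adjusted p = 3.51e-05; -0.31 on the immunoglobulin-free scale).

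Rps25, a protein of the small-subunit head known for its role in internal ribosome entry, was at 302, 303 and 308 FPKM in MHCII-lo and 230, 232 and 234 in MHCII-hi. The groups were far apart against a spread of a few FPKM, a fall of 23.7% (log2 change -0.39 ± 0.02 SE, limma adjusted p = 3.87e-06). Rps7, an Mdm2-binding protein, went from 319 ± 0.595 to 248 ± 3.55 FPKM, and Rps14, the gene lost in the 5q- form of myelodysplasia, from 328 ± 5.04 to 258 ± 3.89 (SD, n = 3). Both fell without overlap (log2 changes -0.36 and -0.34), and both also passed as lower on the immunoglobulin-free scale, at -0.19 and -0.17.

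Of the 46 large-subunit genes, 35 fell, 1 rose and 10 did not pass, beside 33.1% lower and 25.5% higher over all tested genes. The median change of the 46 was -0.19, against -0.04 over all tested genes. On the immunoglobulin-free scale 13 were lower and 15 higher, beside 17.6% and 40.5% of all tested genes. Rpl36a and Rpl39, a small protein that lines the exit tunnel for the growing chain, changed most among those that passed, on the genes' own rows. Rpl36a stood at 180, 173 and 178 FPKM in MHCII-lo and at 133, 128 and 130 in MHCII-hi, with no overlap (log2 change -0.44 ± 0.02 SE, limma adjusted p = 1.13e-05). Rpl39, whose pyrimidine run lies just downstream of the annotated start in the window above, stood at 260, 246 and 251 against 186, 191 and 182 FPKM, again with no overlap (-0.44 ± 0.03 SE, limma adjusted p = 2.24e-05). Both lie on the X chromosome, Rpl36a at chrX:134585654-134588062 and Rpl39 at chrX:37082520-37085402 in GENCODE coordinates on GRCm38. The core genes Rps4x and Rpl10, the latter named after its values were seen, lie there too and changed less, at -0.13 and -0.15. After Rpl36a and Rpl39 in size of change came Rpl34, at 84.1, 87.9 and 88.95 FPKM against 67.5, 64.3 and 69.8. Rpl35, which sits at the tunnel exit, followed at 290, 299 and 300 FPKM against 234, 227 and 238. Neither gene's groups overlapped (log2 changes -0.37 and -0.35). Rows named as pseudogenes held 162% of the own FPKM of Rpl36a and 274% of that of Rpl34, and the order changed with them added: Rpl34 then stood at -0.49, Rpl39 at -0.41, Rpl35 at -0.35 and Rpl36a at -0.29.

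The 20 core genes that were lower under every scaling tried came from both subunits. Beside Rps27a, Rps25, Rps7, Rps14, Rpl36a, Rpl39, Rpl34, Rpl35, Rplp1 and Rpl11 they included Rps3, Rps18, Rpl12, Rpl13a, Rpl15, Rpl22, Rpl24 and Rpl36, of which all but Rpl22 are named after their values were seen. Rps3, which forms part of the mRNA entry channel and is the most changed of the latter, was at 260, 270 and 261 FPKM in MHCII-lo and 210, 202 and 210 in MHCII-hi (log2 change -0.34; -0.17 on the immunoglobulin-free scale). Rpl24, on the face that joins the small subunit, changed least of the 20 on the deposited scale, at 368, 366 and 374 FPKM against 315, 318 and 302, with log2 changes of -0.25 as deposited and -0.07 on the immunoglobulin-free scale. In both genes the groups were apart. The 15 core genes that did not pass on the deposited scale included Rps9, Rps13, Rps27, Rps28, Rpl7a, Rpl14, Rpl17, Rpl19, Rpl21, Rpl23, Rpl29, Rpl30, Rpl37 and Rpl37a. Among them Rpl19 stood at 552, 562 and 548 FPKM against 559, 554 and 574, with overlapping groups and a log2 change of 0.02 ± 0.02 SE. Rpl19 passed as higher on both immunoglobulin-free scales, at 0.20 and 0.11, scaled to the core and with the exon length trend removed, and as lower under quantile normalization, at -0.41, and when scaled to genes other than ribosomal proteins, at -0.21.

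Rps24, Rpl28 and Rps15 were among the 4 members that passed as higher on the deposited scale. Rps24, mutated in some cases of Diamond-Blackfan anaemia, was at 126, 126 and 128 FPKM in MHCII-lo against 144, 146 and 139 in MHCII-hi (0.17 ± 0.03 SE on the log2 scale, limma adjusted p = 0.00107). Rpl28 was at 212, 233 and 228 FPKM against 250, 244 and 252 (0.15 ± 0.04 SE, limma adjusted p = 0.0118). In both the lowest MHCII-hi library exceeded the highest MHCII-lo library. Rps15 rose less, from 633 ± 11.7 to 668 ± 11.7 FPKM (log2 change 0.08, limma adjusted p = 0.0159), and did not pass without MHCII-lo replicate 2, at 0.06, nor in limma without the variance trend (adjusted p = 0.0977) or with no expression minimum (adjusted p = 0.0734). These genes kept their direction and their call on both immunoglobulin-free scales, with Rps24 at 0.35 and 0.26. They turned negative under quantile normalization, at -0.13 for Rps24, -0.24 for Rpl28 and -0.37 for Rps15, and when scaled to genes other than ribosomal proteins.

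Core genes lay on 19 chromosomes, and the largest group, 14 on chromosome 7, had 10 lower members on the deposited scale. This was near the share over all core genes, of which 75.3% were lower, beside 33.1% of all tested genes.

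The stalk of the large subunit, which recruits elongation factors, is formed by Rplp0 with dimers of Rplp1 and Rplp2. Rplp1 was at 1292, 1274 and 1318 FPKM in MHCII-lo and at 1014, 1007 and 1054 in MHCII-hi, with no overlap (log2 change -0.34 ± 0.02 SE, limma adjusted p = 2.73e-05). Rplp2 went from 146 ± 0.906 to 127 ± 1.46 FPKM (-0.20 ± 0.02 SE, limma adjusted p = 0.000146), but did not pass on the immunoglobulin-free scale (-0.02), scaled to the core (-0.03) or with the exon length trend removed (-0.05). Rplp0 went from 908 ± 19.1 to 840 ± 11.1 FPKM (-0.11 ± 0.02 SE, limma adjusted p = 0.00277), and its sign turned on the immunoglobulin-free scale, at 0.06. The stalk transcripts thus differed in size of change, and Rplp1 stood at 8.88 ± 0.145 times Rplp2 in MHCII-lo and 8.06 ± 0.181 times in MHCII-hi (SD, n = 3). Annotated exon lengths were 499 bases for Rplp1 and 2072 for Rplp2. As FPKM is per length, the size of this ratio depends on the lengths used. Rpsa, the laminin receptor protein of the small subunit, went from 545 ± 4.31 to 478 ± 0.127 FPKM, at -0.19 as deposited and -0.01 without immunoglobulin genes, where it did not pass.

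The proteins best known from anaemia and p53 control fell by unequal amounts on the deposited scale. Rpl11 was at 202, 201 and 201 FPKM in MHCII-lo against 164, 158 and 161 in the other group (-0.32 ± 0.02 SE on the log2 scale, limma adjusted p = 2.14e-05), and Rpl11 and Rps14 were among the 20 core genes lower under every scaling tried. Rpl5, its partner in the 5S particle, went from 285 ± 3.91 to 245 ± 4.62 FPKM (-0.22), while Rps19 was at 100.1 ± 1.79 FPKM (SD, n = 3) in MHCII-lo and at 89.6, 90.4 and 89.97 in MHCII-hi (-0.15). Neither Rpl5, at -0.04, nor Rps19, at 0.02, passed on the immunoglobulin-free scale.

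The 3 most abundant members on the FPKM scale, which is per length, were Rps3a1 at 1497 ± 2.78 FPKM in MHCII-lo and 1291 ± 21.2 in MHCII-hi, followed by Rplp1 and Rplp0. The lowest core genes were Rpl21, Rpl34 and Rpl22. Estimated fragments per library, from FPKM and annotated exon length, had a median of 12027 over core genes. They were lowest for Rpl21, at 1053. That length covers all annotated exons of a gene and can exceed its mRNA, so these estimates may be too high. Along the 77 core genes the log2 change followed neither exon length nor level closely (Spearman rho -0.09 and 0.10, given as a description across genes that share the same libraries). For exon lengths under 1000 bases the median change was -0.19 over 10 core genes and 0.02 over all tested genes. In the next class of annotated exon length, which is not transcript length, it was -0.14 over 32 core genes and -0.20 over all. In the class after that it was -0.20 over 29 core genes and -0.11 over all. In the class of greatest exon length it was -0.19 over 6 core genes and 0.03 over all. With the trend of change on exon length removed, 37 members were lower and 15 higher, beside 27.6% and 27.7% of all tested genes.

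Among paralogues and copies, 4 of the 8 tested fell and none rose, beside 33.1% lower and 25.5% higher over all tested genes. These 4 were lower under every scaling tried. At an unadjusted limma p under 0.05 none of the 8 rose either. Rps27l, a paralogue of Rps27 that p53 is known to induce, changed most of all tested members. It was at 92.05, 88.7 and 88.4 FPKM in MHCII-lo and 48.4, 53.05 and 50.2 in MHCII-hi, a fall of 43.7% (log2 change -0.82 ± 0.04 SE, limma adjusted p = 5.01e-06; -0.64 on the immunoglobulin-free scale). Rps27 itself overlapped between groups, at 317, 322 and 336 FPKM against 335, 333 and 305, and did not pass (limma adjusted p = 0.945), though it passed as higher on the immunoglobulin-free scale, at 0.17, and as lower under quantile normalization, at -0.46, and when scaled to genes other than ribosomal proteins, at -0.23. Within a library, Rps27l stood at 27.6% ± 1.37 of Rps27 in MHCII-lo and 15.6% ± 1.05 in MHCII-hi (SD, n = 3). Both genes have a pyrimidine run near the start in the windows above, across the annotated start in Rps27 and ahead of it in Rps27l.

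Rpl22l1 differed from Rps27l in that its partner fell with it. Rpl22, whose protein is known to bind and repress the Rpl22l1 mRNA, went from 101 ± 2.89 to 81.8 ± 1.58 FPKM (log2 change -0.30, limma adjusted p = 0.000151). Rpl22l1 was at 89.1, 87.5 and 84.3 FPKM in MHCII-lo and 68.9, 68.8 and 67.2 in MHCII-hi (-0.34 ± 0.03 SE, limma adjusted p = 6.43e-05). The paralogue therefore stood at 86.3% ± 0.416 of its partner in MHCII-lo and 83.5% ± 2.69 in MHCII-hi, a difference of -0.05 in log2 ratio. Rpl7l1, a relative of Rpl7, was at 28.1, 27.5 and 27.1 FPKM against 20.1, 19.0 and 19.2, a fall of 29.4% (log2 change -0.48 ± 0.03 SE, limma adjusted p = 3.45e-05). Its partner Rpl7 went from 363 ± 2.07 to 341 ± 5.34 FPKM, so Rpl7l1 stood at 7.60% ± 0.178 and then 5.71% ± 0.114 of Rpl7.

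Rps4l, at a low level, was at 5.51, 5.64 and 7.47 FPKM against 3.87, 3.15 and 4.41 (log2 change -0.58 ± 0.13 SE, limma adjusted p = 0.00879), without overlap. Rpl6l, Rpl32l, Rps3a2 and Rps3a3, with log2 changes from -0.16 to -0.00, did not pass; Rpl6l was the most abundant of them, at 74.5 ± 5.32 and 72.4 ± 3.52 FPKM, and Rps3a3 was at 9.52 ± 0.611 and 9.49 ± 0.612. Of the 2 members below the minimum, Rpl39l, the germ cell paralogue of Rpl39, was at 0.69, 1.27 and 0.53 FPKM in MHCII-lo and 0.11, 0.18 and 0.13 in MHCII-hi, and Rpl3l, the striated muscle paralogue of Rpl3, stayed between 0.12 and 0.27 FPKM in all libraries.

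Ratios to the partner could be formed for 8 pairs, and 5 did not overlap between groups, 4 lower and 1 higher in MHCII-hi, beside 36.8% and 29.0% of all tested genes for single-gene FPKM. With 3 against 3 libraries the exact two-sided permutation test cannot go below p = 0.1, which these 5 reached (adjusted p = 0.16 over the 8 pairs), so none passed. Their log2 differences were -0.81 for Rps27l, -0.45 for Rps4l, -0.39 for Rpl7l1, -0.05 for Rpl22l1 and 0.21 for Rps3a3. The log2 ratios of Rpl6l, Rpl32l and Rps3a2 to their partners overlapped, with differences of 0.09, -0.09 and 0.12. Reads of near-identical copies could be shared out between rows, so values of processed copies are uncertain.

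**Figure D2:**
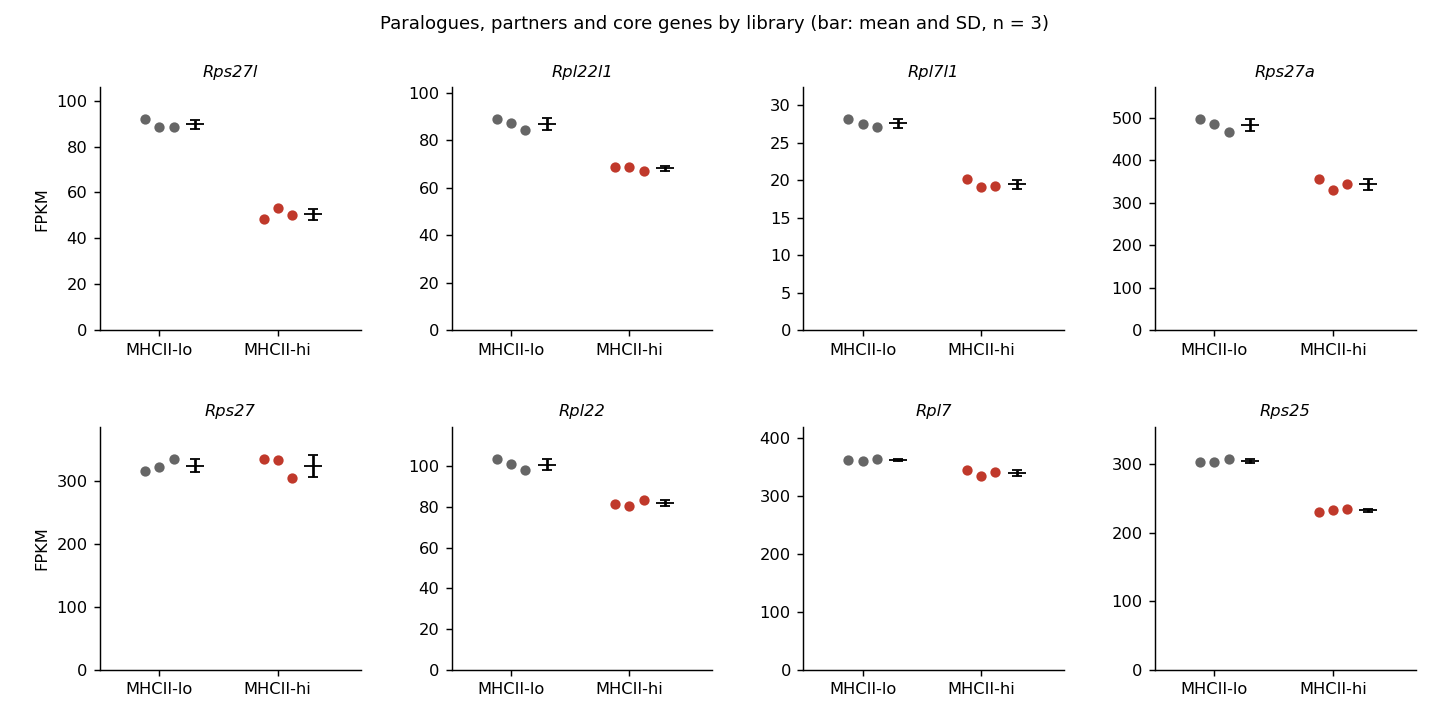
FPKM of 3 paralogues above their partners and of Rps27a above Rps25, with a point per library, the mean as a bar and its SD (n = 3), and each vertical axis starting at 0. Rps27l lies between 88.4 and 92.05 FPKM in MHCII-lo and between 48.4 and 53.05 in MHCII-hi, while the libraries of Rps27 overlap.

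All 87 members together took 8.17% ± 0.0245 of summed FPKM in MHCII-lo and 6.32% ± 0.0388 in MHCII-hi (SD, n = 3). Without immunoglobulin genes in the denominator the shares were 8.22% ± 0.0245 and 8.27% ± 0.0655, which overlapped within their spread. Counted as FPKM times exon length they were 5.45% ± 0.0107 and 4.87% ± 0.0239, and 5.46% ± 0.0106 and 5.15% ± 0.0265 when immunoglobulin genes, at 5.54% ± 0.0233 of the MHCII-hi total, were left out. The size of the difference in total share therefore depended on the denominator, from none beyond the spread to a ratio of 0.774.

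**Figure D3:**
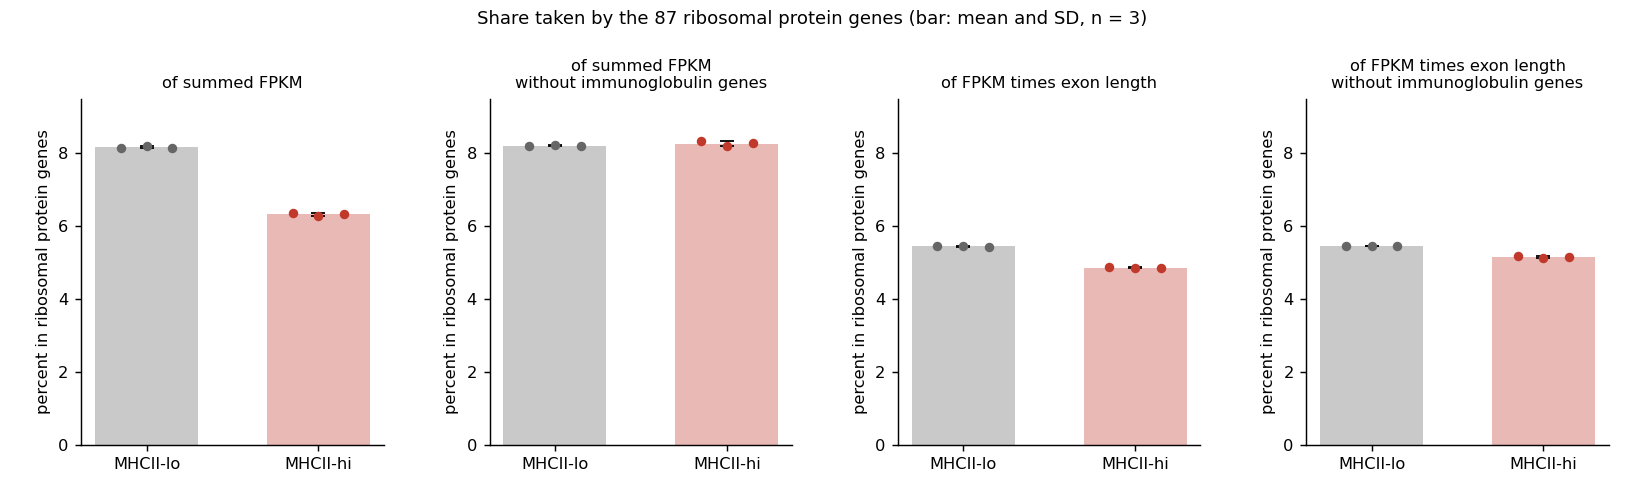
The share of each library taken by the 87 genes under 4 denominators, with a point per library, a bar at the mean from an axis at 0 and its SD (n = 3). The bars stand at 8.17% and 6.32% of summed FPKM, and at 8.22% and 8.27% once immunoglobulin genes are left out of it.

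The balance of the subunits differed little. Summed FPKM of the small-subunit core over the large-subunit core was 0.820, 0.823 and 0.822 in MHCII-lo and 0.830, 0.843 and 0.832 in MHCII-hi. The groups did not overlap, but the difference between their means was small, 0.822 ± 0.00104 against 0.835 ± 0.00714 (SD, n = 3). Weighted by exon length the ratio was 0.852 ± 0.00160 and 0.847 ± 0.00618, in the opposite order and overlapping. On the deposited scale the small-subunit sum went from 12123 ± 30.0 to 10903 ± 40.0 FPKM and the large-subunit sum from 14756 ± 24.2 to 13059 ± 148.

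Some core genes had much of their signal in rows named as their pseudogenes. Such rows (symbol followed by -ps) were present for 55 members, 238 rows in all, and exceeded the gene's own FPKM for 9 members. The genes with the widest replicate spread, Rpl17, Rpl7a and Rpl21, were all among them; these and Rps12 are described because of that spread or share, after their values were seen. In MHCII-lo, Rpl7a was at 286, 221 and 130 FPKM, a coefficient of variation of 36.8%, against 438, 455 and 438 FPKM (2.23%) once its pseudogene rows were added. In MHCII-hi, Rpl7a with those rows stood at 433, 425 and 423 FPKM.

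Rpl17 varied most in MHCII-hi, at 212, 78.0 and 95.0 FPKM, a coefficient of variation of 56.9% that became 11.4% after summing. For Rpl21 the pseudogene rows held 1668% of the gene's own FPKM. Its own values, 19.0, 17.0 and 16.5 FPKM against 26.2, 14.9 and 22.3, overlapped and did not pass. With the pseudogene rows added, Rpl21 was at 332, 315 and 325 against 371, 347 and 360 FPKM and passed as higher (log2 change 0.15, limma adjusted p = 0.00593). Without MHCII-hi replicate 2, the lowest of its group, Rpl21 alone also passed as higher, at 0.45. Rps12 had pseudogene rows at 286% of its own value, and did not pass with them added (limma adjusted p = 0.0538). The same held for Rps10, Rpl9 and Rpl35a, lower on their own rows (limma adjusted p after summing 0.379, 0.524 and 0.708). Summing widened the spread of some genes. The coefficient of variation went from 15.6% to 21.3% for Rpl30 in MHCII-lo, and from 5.23% to 16.0% for Rpl35a in MHCII-hi. These genes too are named after their values were seen. Over all members the pseudogene rows summed to 5561 ± 202 FPKM in MHCII-lo and 5385 ± 225 in MHCII-hi (SD, n = 3). A sum of FPKM over rows of unlike length is only approximate.

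**Figure D4:**
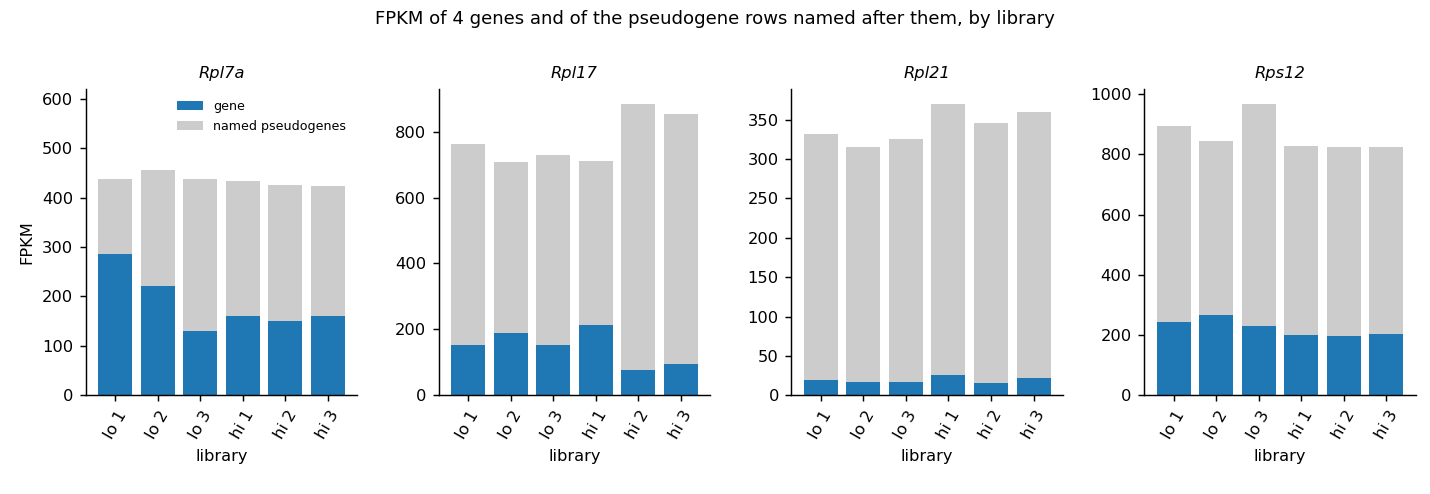
FPKM of Rpl7a, Rpl17, Rpl21 and Rps12 in each library (lower part of each bar) with the pseudogene rows named after them stacked on top, on axes from 0. The lower part for Rpl7a runs from 286 to 130 FPKM across the MHCII-lo libraries while the full bars stand between 438 and 455.

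The other genes of the translation machinery, taken from fixed lists, were mostly lower too. Beside 33.1% lower and 25.5% higher over all genes, 24 of 27 initiation factors fell, 2 rose and 1 did not pass (median change -0.25). On the immunoglobulin-free scale 10 were lower and 5 higher, beside 17.6% and 40.5% of all genes. Eif2s2, a subunit of the factor that carries the initiator tRNA, went from 28.3 ± 0.616 to 18.8 ± 0.419 FPKM (log2 change -0.56), and Eif5a, the hypusinated elongation and termination factor, from 348 ± 1.93 to 270 ± 4.402 (-0.37). Eif5, which triggers GTP hydrolysis at the start codon, moved the other way, from 79.8 ± 1.39 to 111 ± 3.40 FPKM (0.47; SD, n = 3).

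Ribosome biogenesis factors followed the ribosomal proteins in sign on the deposited scale, with 31 of 44 lower, 1 higher and 12 not passed (median -0.29). On the immunoglobulin-free scale 20 were lower and 7 higher, beside 17.6% and 40.5% of all genes. Nhp2, of the RNPs that guide pseudouridylation, went from 62.1 ± 1.81 to 40.7 ± 0.615 FPKM (log2 change -0.60). Ebna1bp2, a large-subunit assembly factor, went from 24.2 ± 0.866 to 15.8 ± 0.598 (-0.59), and Nop58, of the methylation-guiding RNPs, from 17.6 ± 0.318 to 12.9 ± 0.374 (-0.42). Mitochondrial ribosomal proteins, a separate set of proteins for the ribosome of that organelle, had 63 of 78 lower, none higher and 15 not passed, with a median of -0.34 (limma; none was higher at an unadjusted p under 0.05 either). The mitochondrial list had 40 lower and 2 higher on the immunoglobulin-free scale, beside the same shares of all genes. There Mrpl33 stayed at -0.74 after -0.91 as deposited (15.9 ± 0.287 against 8.01 ± 0.264 FPKM). Whether any of these lists moved more than the cytosolic ribosomal proteins was not tested.

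Elongation factors and other TOP mRNAs were split, with 6 of 16 lower (33.1% of all genes), 5 higher (25.5%) and 5 not passed. These shares were near those of all genes (list median -0.02). On the immunoglobulin-free scale 3 were lower (17.6% of all genes) and 10 higher (40.5%). The split was absent under quantile normalization, with 14 lower (39.4% of all genes) and 0 higher (20.9%). It was nearly absent when scaled to genes other than ribosomal proteins, with 13 lower (54.7%) and 1 higher (14.2%). At an unadjusted limma p under 0.05 the counts of higher genes were also 0 and 1. Npm1, a nucleolar chaperone, went from 387 ± 4.43 to 292 ± 2.87 FPKM (log2 change -0.40), and Btf3, of the nascent chain complex, from 237 ± 1.67 to 189 ± 0.819 (-0.32). Hnrnpa1, an RNA-binding protein, rose from 232 ± 2.99 to 284 ± 3.10 FPKM (0.29), though it was lower under quantile normalization, at -0.12. Eef1a1, the factor that delivers tRNAs and the most abundant of this list, was at 2668 ± 31.7 against 3091 ± 41.6 FPKM (0.21) and is named after its values were seen; its sign turned under quantile normalization, at -0.08, and when scaled to genes other than ribosomal proteins, at -0.02. Of the ribosomal proteins with other names, Rack1 and Rpl36al fell (-0.12 and -0.14), and Fau and Rps27rt did not pass; neither Rack1 nor Rpl36al passed on the immunoglobulin-free scale.

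The list of ribosomal stress and growth signalling ran the other way on the deposited scale. Of its 13 tested genes 9 were higher (25.5% of all genes) and 2 lower (33.1%), with a list median of 0.21. On the immunoglobulin-free scale 11 were higher (40.5% of all genes) and 1 lower (17.6%). Scaled to genes other than ribosomal proteins, only 4 were higher and 3 lower, beside 14.2% and 54.7% of all genes, with a list median of 0.02. Cdkn1a, the cell-cycle inhibitor induced by p53, rose from 10.7 ± 0.517 to 19.6 ± 1.496 FPKM (log2 change 0.81 ± 0.06 SE, limma adjusted p = 4.69e-05), in the opposite direction to Rps27l, which p53 is also known to induce. Atf4, the stress-response transcription factor, rose from 125 ± 0.361 to 154 ± 1.45 FPKM (0.30), and was at 0.00 under quantile normalization. Rheb, an activator of mTOR complex 1, fell from 9.10 ± 0.182 to 6.95 ± 0.312 (-0.35; SD, n = 3).

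**Figure D5:**
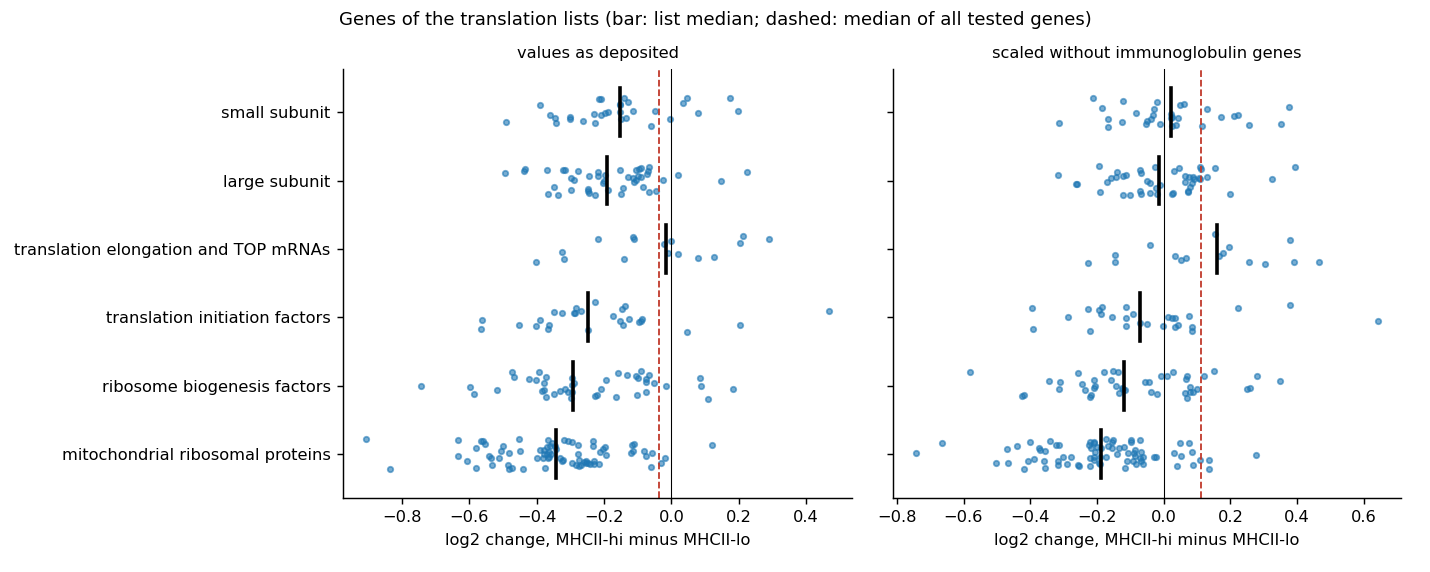
The log2 change of every tested gene of both subunits and of 4 translation lists, on the deposited scale (left) and the immunoglobulin-free scale (right), with list medians as bars and the median of all tested genes as a dashed line at -0.04 (left) and 0.11 (right). The subunit medians stand at -0.15 and -0.19 on the left and at 0.02 and -0.01 on the right.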

How the data were processed

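Stranded mRNA libraries were prepared from RNA of sorted cells, as the labels' protocols say. For the steps behind the tables, the submitters' processing notes list fastp, HISAT2, StringTie and GRCm38 (mm10), without versions or settings. The FPKM that the authors deposited, a value per symbol and library, were made with these tools as far as the notes say; no header states the unit, which was inferred from value steps and sums (332289 to 383600 per library). Because FPKM is scaled to a library's total, abundant transcripts of some genes lower the others. Of 30803 rows, 70 that shared a symbol were dropped.

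The 12110 genes that averaged 1 FPKM or more entered limma (3.58.1, R 4.3.3) as log2(FPKM + 1), fitted without covariates and with the variance trended on intensity; tests were two-sided, Benjamini-Hochberg at 0.05. The fit was tested on simulated data. Depth was estimated from the value steps of single-exon genes of 300 to 1000 bases. Coordinates and exon lengths come from GENCODE M21 (98.1% of tested symbols found), start windows from RefSeq. Exon length covers all annotated exons of a gene, with overlapping bases counted once, and is not the length of a single transcript. No library pair agreed within counting noise as estimated with these lengths, which may understate that noise. The libraries were fitted unpaired. The labels do not say whether replicate numbers pair them, and correlations between 3 libraries per group cannot decide it. Members and lists were chosen with earlier results of these data known.

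Genes named are all paralogues and copies with their partners, up to 8 core genes per direction by size of change, the stalk and Rpsa, Rps19, Rps14, Rpl5 and Rpl11, the 3 highest members and 3 lowest core genes, up to 3 per list by smallest p, and the class II genes; others are said to be chosen later. Some genes that the rule or the pattern covers are not reported here by name, and stay in the counts. Alternatives were scalings, pseudocount, expression minimum, limma settings and leaving out each library.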

Additional observations from a re-analysis of the deposited data

How the results depend on the processing

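Scaling decided most results. The count of lower members, 62, became 37 with the exon length trend removed, 27 when scaled to the core ribosomal proteins and 24 without immunoglobulin genes; the count of higher members, 4, became 15, 19 and 25 under these, 7 on the length-weighted immunoglobulin-free scale (added after seeing the data), and 0 both under quantile normalization and when scaled to genes other than ribosomal proteins. Small- and large-subunit medians (-0.15 and -0.19) became -0.054 and -0.049 with the length trend removed, -0.63 and -0.59 under quantile normalization, -0.38 and -0.42 scaled to other genes, 0.011 and -0.027 scaled to the core, 0.023 and -0.015 without immunoglobulin genes, and -0.064 and -0.10 on the length-weighted scale. The large-subunit median was -0.13 with pseudogene rows summed (added after seeing the data) and between -0.19 and -0.17 with a library left out. The share ratio of 0.774 became 1.01 without immunoglobulin genes, 0.892 by FPKM times exon length and 0.944 with both; the subunit ratio of 1.02 became 0.995 by FPKM times exon length.

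Over the translation lists 126 genes were lower and 8 higher; lower became 83 scaled to the core and 73 without immunoglobulin genes, and higher became 16 with the length trend removed, 2 under quantile normalization, 2 scaled to other genes, 24 scaled to the core, 26 without immunoglobulin genes and 15 on the length-weighted scale. Over all genes, 4009 lower and 3084 higher became 6625 and 1723 scaled to other genes, 2235 and 4759 scaled to the core, and 2131 and 4901 without immunoglobulin genes; with a minimum of 5 FPKM 1792 were higher.

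Signs turned without immunoglobulin genes and when scaled to the core for Rpl3 (0.11, 0.0999), Rpl32 (0.11, 0.094), Rpl6 (0.047, 0.035), Rpl6l (0.14, 0.13), Rpl7 (0.087, 0.076), Rplp0 (0.065, 0.053), Rps19 (0.023, 0.012), Rps27 (0.17, 0.16), Rps3a2 (0.0798, 0.069), Rps3a3 (0.16, 0.15) and Rps4x (0.043, 0.031). With the length trend removed they turned for Rpl3 (0.037), Rpl32 (0.063), Rpl6l (0.088), Rpl7 (0.0304), Rplp0 (0.053), Rps27 (0.14), Rps3a2 (0.028), Rps3a3 (0.11) and Rps4x (0.032), and on the length-weighted scale for Rpl3 (0.024), Rpl32 (0.018), Rpl6l (0.051), Rps27 (0.086) and Rps3a3 (0.077). Quantile normalization and scaling to other genes turned Rpl28 (-0.24, -0.083), Rps15 (-0.37, -0.15) and Rps24 (-0.13, -0.055). Upper-quartile scaling turned Rps27 (0.0084) and Rps3a3 (0.0069). With a library left out, Rpl6l ranged from -0.092 to 0.0096, Rps27 from -0.027 to 0.0399 and Rps3a3 from -0.053 to 0.044. The cause was not tested.

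The replicate block left 62 members lower and 4 higher. Deviations of same-numbered libraries from their group means correlated at -0.09, -0.00 and -0.03, which cannot decide whether these libraries share a source. A pseudocount of 0.1 and robust moderation kept the direction and call of all 35 named members tested.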
